A study of Homo sapiens with 9 samples.

Results

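Complement is a cascade of blood and tissue proteins that marks surfaces for clearance and can end in lysis of the marked cell. Its pathways meet at C3, the central component: the classical pathway reaches it through the C1 complex, whose proteases are C1r and C1s, and the alternative pathway amplifies its cleavage through factor B. Host cells limit the cascade with soluble inhibitors, among them factor I and the C1 inhibitor SERPING1, and with the membrane proteins CD46, CD55 and CD59. The liver makes most of the circulating C3, and epithelial cells and tumours make C3 locally. C3 is a classical oestrogen-induced transcript of the uterus in rodents.

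The 9 genes described here are C3, CFB, CFI, C1R, C1S, CD46, CD55, CD59 and SERPING1, taken by symbol from 60240 gene IDs in the deposited count table. Each symbol had 1 row. C3 was chosen because it was high with ERβ1 and higher again with ligand in these data, so its differences between the groups are given as a description, without a test. Of the 9 genes, 8 passed the filter on low counts and were among the 17058 genes tested; CFI did not.

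Messenger RNA was sequenced in 3 groups of 3 libraries, all of MDA-MB-231, a human breast cancer line of basal type that stands for triple negative tumours in the laboratory. The first group carried a lentiviral GFP-luciferase vector that also encodes oestrogen receptor β isoform 1 (ERβ1), and was kept in 100 ng/ml doxycycline for 3 days, with the ligand CLI for 24 hours (ERβ1+CLI). The second carried the same ERβ1 vector with doxycycline alone (ERβ1), and the third carried the GFP-luciferase control vector with doxycycline (control). Every group thus carried a doxycycline-inducible lentiviral vector and received doxycycline, and no control cells with CLI were analysed here. The medium of all groups held serum, and no dose of CLI is stated in the sources used here. They also do not say whether the transduced cells were clones or whether the 3 libraries of a group came from separate cultures, so p-values measure the spread between these libraries, which may be technical.

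Total estimated counts were 39902456 to 55387538 per library, so that 3 counts, the floor used here for a gene with no counts, correspond to 0.0535 to 0.0745 CPM (counts per 1e+06, on library sizes scaled by TMM). ESR2, the gene of ERβ, averaged 84.2 ± 3.09 CPM with ERβ1+CLI, 117 ± 1.51 CPM with ERβ1 and 0.137 ± 0.00454 CPM in control cells (SD, n = 3 each). The cell line's markers VIM, CD44, CAV1 and MSN summed to 4650 to 5010 CPM with ERβ1+CLI, 4860 to 4980 CPM with ERβ1 and 5530 to 5850 CPM in control cells. With ERβ1 against control, 2 of these 4 were called lower and 0 higher, beside 10.7% of all genes in each direction. These were VIM (log2 fold change -0.31, adjusted p = 0.000272, edgeR) and CAV1 (-0.28, 0.00386). With ERβ1+CLI against control, CD44 was called lower too (-0.41, 0.019), a call lost without any 1 of 3 libraries. Hepatocyte markers, of interest because the liver is the main source of C3, summed to at most 2.1 CPM in any library, with TTR and AHSG at 0 throughout. Macrophage and blood cell markers summed to 86.6 to 94.9 CPM with ERβ1+CLI, 97.6 to 100.0 CPM with ERβ1 and 86.3 to 87.8 CPM in control cells. ITGAM and CD163 were at 0 in control libraries. ITGAM had 3, 2 and 2 counts in ERβ1+CLI replicates 1, 2 and 3 and 38, 4 and 1 in ERβ1 replicates. PTPRC had 0, 3 and 13 counts in ERβ1+CLI replicates, 60, 2 and 0 in ERβ1 replicates and 2, 1 and 0 in control replicates. Fibroblast markers summed to 27.4 to 40.5 CPM with ERβ1+CLI, 26.2 to 36.2 CPM with ERβ1 and 22.7 to 30.7 CPM in control cells. Endothelial markers summed to 14.4 to 16.6 CPM with ERβ1+CLI, 14.9 to 16.6 CPM with ERβ1 and 13.2 to 15 CPM in control cells. Luminal breast markers summed to 834 to 864 CPM with ERβ1+CLI, 859 to 880 CPM with ERβ1 and 910 to 920 CPM in control cells. Single markers moved: with ERβ1 against control, where 10.7% of all genes tested were called higher and 10.7% lower, 1 of 4 tested macrophage and blood cell markers was called higher (LYZ), 2 of 4 fibroblast markers (LUM and COL1A1) and 1 of 4 endothelial markers (PECAM1), and of 6 luminal markers 1 was called higher (CDH1) and 2 lower (KRT8 and AGR2). LYZ averaged 0.556 CPM with ERβ1+CLI, 0.353 with ERβ1 and 0.0613 in control cells, LUM 0.535 with ERβ1+CLI, 0.311 with ERβ1 and 0.0453 in control cells, and CDH1 2.54 with ERβ1+CLI, 1.33 with ERβ1 and 0.120 in control cells. In the other direction, AGR2 had 0 counts in all ERβ1+CLI and ERβ1 libraries and 34, 45 and 37 counts in control libraries. LYZ, LUM and CDH1 passed the filter on low counts through the receptor groups, and AGR2 through the control group. Counts of calls that hold these genes are therefore a description only. The fibroblast marker COL1A2 averaged 1.26 CPM with ERβ1+CLI, 1.42 with ERβ1 and 2.63 in control cells and was not called (adjusted p = 0.243 with ERβ1 against control, edgeR). The COL1A1 call was lost without any 1 of 7 libraries (adjusted p up to 0.135, edgeR) and the PECAM1 call without any 1 of 4 (up to 0.0832). The part of these differences in the results below was not tested. ESR1, the gene of ERα, had 33, 306 and 3 counts in ERβ1+CLI replicates 1, 2 and 3, against 5, 3 and 4 counts in ERβ1 libraries and 0, 0 and 1 in control libraries. C3 in those ERβ1+CLI replicates stood at 131, 118 and 122 CPM. A part of ESR1 in the C3 levels was not tested. In bulk samples, fewer cells making a transcript and less transcript per cell cannot be told apart.

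C3 was the gene of the set with by far the widest range over the 3 groups. C3 (ENSG00000125730, chr19:6677704-6730562 on the minus strand of GRCh38, GENCODE 29) encodes the protein that both convertases cleave. It stood at 131, 118 and 122 CPM in ERβ1+CLI libraries, 45.2, 45.9 and 35.2 CPM in ERβ1 libraries and 2.64, 3.45 and 3.15 CPM in control libraries. No library of one group reached the range of another. The means were 124 ± 6.57 CPM with ERβ1+CLI, 42.1 ± 5.96 CPM with ERβ1 and 3.08 ± 0.410 CPM in control cells (SD, n = 3 each). With ERβ1 the mean was 13.7-fold that of control cells, a log2 fold change of 3.78 (SE 0.13), and with ERβ1+CLI it was 40.2-fold, a log2 fold change of 5.33 (SE 0.14). These put C3 at place 38 and place 33 among the rises of all 17058 genes. The lowest and highest log2 fold changes with 1 library left out at a time were 3.68 and 3.90 for ERβ1 against control and 5.23 and 5.43 for ERβ1+CLI against control.

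The comparison of ERβ1+CLI with ERβ1 asks what the ligand adds in cells that already have the receptor. The difference is between the receptor groups, while the filter, scaling and spread of the fit draw on all 9 libraries, control included. Mean C3 with ERβ1+CLI was 2.94-fold that with ERβ1, a log2 fold change of 1.55 (SE 0.11). With 1 library left out at a time the log2 fold change was 1.44 to 1.62. ESR2 fell by 0.48 on the log2 scale in the same comparison (adjusted p = 0.000363, edgeR's quasi-likelihood test with Benjamini-Hochberg adjustment over all genes).

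C3 also changed its place among the 9 genes. It made up 14.2, 12.5 and 13.3% of their summed CPM in ERβ1+CLI libraries, 5.33, 5.36 and 4.25% in ERβ1 libraries and 0.350, 0.441 and 0.401% in control libraries. The ratio of C3 to CFB, the serine protease that joins C3b in the alternative pathway convertase, was 7.92, 7.88 and 5.95 with ERβ1+CLI, 2.35, 2.39 and 1.69 with ERβ1 and 0.184, 0.262 and 0.201 in control cells. The control cells thus had more CFB than C3 counts, and both receptor groups had more C3 than CFB counts. Per kilobase of the longest annotated transcript, mean C3 levels were 23.5 CPM per kb with ERβ1+CLI, 8.0 with ERβ1 and 0.585 in control cells. On that scale the order in ERβ1+CLI cells was CD59 (62.7), CD55 (42.6), C3 (23.5), CD46 (22.4), CFB (6.06), C1R (1.54), SERPING1 (0.683) and C1S (0.516), with CFI at 0. In control cells C3 stood below CD59 (58.0), CD55 (45.2), CD46 (22.7), CFB (5.03) and C1R (1.02), and above SERPING1 (0.296) and C1S (0.269). These per-kb levels divide by 1 transcript's length a gene and are a description only.

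**Figure D1:**
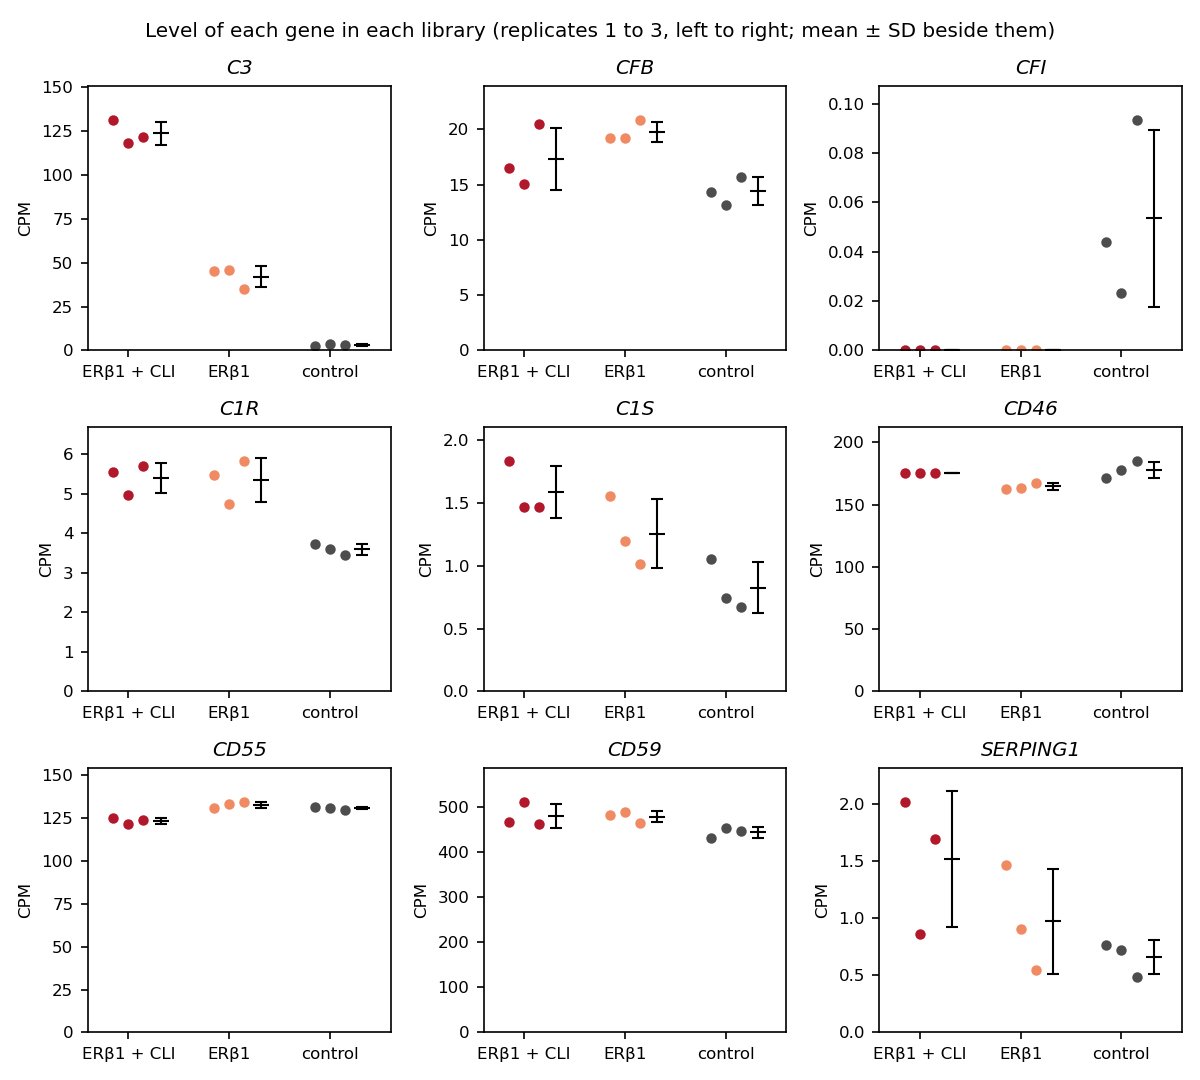
Level in CPM (vertical axis, starting at 0, with its own scale in each panel) of the 9 genes in each library of the ERβ1+CLI, ERβ1 and control groups, with points for replicates 1 to 3 and the mean ± SD beside them. C3 sits at 118 to 131 CPM with ERβ1+CLI, 35.2 to 45.9 CPM with ERβ1 and 2.64 to 3.45 CPM in control libraries, while CD46, CD55 and CD59 change little on their own scales.

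CFB (ENSG00000243649, chr6:31945650-31952084, plus strand) was higher with ERβ1, and no difference between ERβ1+CLI and ERβ1 passed the test. It stood at 16.6, 15 and 20.5 CPM in ERβ1+CLI libraries, 19.3, 19.2 and 20.8 CPM in ERβ1 libraries and 14.4, 13.2 and 15.7 CPM in control libraries. The ERβ1 libraries all lay above the control libraries, and the ERβ1+CLI libraries overlapped both other groups. CFB rose with ERβ1 by a log2 fold change of 0.46 (SE 0.12, 95% interval 0.20 to 0.72; adjusted p = 0.0224, edgeR). That call was lost without control replicate 1 (adjusted p = 0.0625), control replicate 2 (0.0768) or ERβ1 replicate 3 (0.0700). With ERβ1+CLI the log2 fold change was -0.19 against ERβ1 (95% interval -0.45 to 0.07; adjusted p = 0.562, edgeR) and 0.27 against control (adjusted p = 0.125), which passed without ERβ1+CLI replicate 2 (0.0469). CFB shares 2249 exon bases with AL645922.1, a gene model that spans from C2 into CFB, which had 28, 4 and 0 counts in ERβ1+CLI libraries and 0 in all others, so reads of the pair cannot be fully told apart.

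The classical pathway proteases C1R and C1S lie side by side on chromosome 12 and were both low. C1R (ENSG00000159403, chr12:7080199-7092607, minus strand) encodes the protease that activates C1s. It stood at 5.54, 4.96 and 5.69 CPM in ERβ1+CLI libraries, 5.47, 4.75 and 5.81 CPM in ERβ1 libraries and 3.72, 3.59 and 3.45 CPM in control libraries. Every library of both receptor groups lay above every control library, and the receptor groups overlapped each other. C1R rose with ERβ1 by a log2 fold change of 0.57 (SE 0.11, 95% interval 0.33 to 0.82; adjusted p = 0.00595, edgeR) and with ERβ1+CLI against control by 0.59 (95% interval 0.34 to 0.83; adjusted p = 0.00391). Between ERβ1+CLI and ERβ1 the log2 fold change was 0.02, with a 95% interval of -0.22 to 0.26 (adjusted p = 0.975, edgeR). C1R shares 672 exon bases on the same strand with C1RL, a C1r-like protease gene, so their counts may be exchanged in part.

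C1S (ENSG00000182326, chr12:6988259-7071032, plus strand) encodes the protease of the C1 complex that cleaves C4 and C2. It stood at 1.83, 1.47 and 1.47 CPM in ERβ1+CLI libraries, 1.56, 1.2 and 1.02 CPM in ERβ1 libraries and 1.06, 0.747 and 0.676 CPM in control libraries. Every ERβ1+CLI library lay above every control library, and ERβ1 libraries overlapped both other groups. C1S rose with ERβ1+CLI against control by a log2 fold change of 0.94 (95% interval 0.40 to 1.48; adjusted p = 0.0185, edgeR), a call lost without control replicate 2 (adjusted p = 0.0626), control replicate 3 (0.0611) or ERβ1+CLI replicate 1 (0.0625). With ERβ1 against control its log2 fold change was 0.60 (95% interval 0.06 to 1.14; adjusted p = 0.11), and with ERβ1+CLI against ERβ1 it was 0.34 (-0.19 to 0.86; adjusted p = 0.617). C1S shares 229 exon bases on the same strand with EMG1, which stood at 28.3 to 32.3 CPM, so their counts may be exchanged in part.

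Promoter windows of 250 bases before to 50 after the start were taken from RefSeq (GRCh38.p14), which matched 6 of the 9 genes; C3, C1S and SERPING1 were not matched. The windows of CFB and C1R are printed because these were, C3 aside, the genes of the set called higher with ERβ1. Capitals mark matches to 7 motifs searched on both strands.
CFB, chr6:31945845-31946144, plus strand: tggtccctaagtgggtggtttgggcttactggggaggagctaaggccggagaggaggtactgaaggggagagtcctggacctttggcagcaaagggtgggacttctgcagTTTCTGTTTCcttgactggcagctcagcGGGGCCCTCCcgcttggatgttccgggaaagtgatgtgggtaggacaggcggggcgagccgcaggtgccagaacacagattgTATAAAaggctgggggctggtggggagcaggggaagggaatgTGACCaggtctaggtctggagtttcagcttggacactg
C1R window 1, chr12:7092396-7092695, minus strand: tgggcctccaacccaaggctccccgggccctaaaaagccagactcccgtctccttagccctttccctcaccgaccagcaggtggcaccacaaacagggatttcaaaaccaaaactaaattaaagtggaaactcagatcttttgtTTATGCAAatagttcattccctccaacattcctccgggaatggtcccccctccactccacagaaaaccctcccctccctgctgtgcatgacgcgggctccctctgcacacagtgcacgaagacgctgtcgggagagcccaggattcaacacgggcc
C1R window 2, chr12:7091844-7092143, minus strand: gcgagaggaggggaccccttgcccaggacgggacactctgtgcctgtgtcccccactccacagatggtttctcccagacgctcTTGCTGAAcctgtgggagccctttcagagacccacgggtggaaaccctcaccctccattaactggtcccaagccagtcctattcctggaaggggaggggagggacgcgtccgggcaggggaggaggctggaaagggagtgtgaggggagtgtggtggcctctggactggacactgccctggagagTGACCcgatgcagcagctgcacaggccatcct

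In the CFB window the capitals are, from the 5′ end, the interferon response motif on the opposite strand, the NF-kB consensus, the TATA box TATAAA and the oestrogen response element half-site TGACC. These motifs were found in 3.57, 11.3, 11.5 and 37.4% of all 35116 windows. In C1R window 1 the capitals are the C/EBP core TTGCNNAA on the opposite strand, and in window 2 the C/EBP core followed by a half-site; 10.5% of all windows hold that core. The AP-1 site TGANTCA, in 7.71% of all windows, was in neither gene's windows. The palindromic oestrogen response element, which is the half-site and its reverse complement 3 bases apart, was in 0.057% of all windows and in none of the 11 windows of the 6 matched genes. No overlapping matches occurred in the printed windows, and a match or its absence describes only these letters.

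The soluble inhibitors were low. SERPING1 (ENSG00000149131, chr11:57597387-57614853, plus strand), which inactivates C1r and C1s, stood at 2.02, 0.860 and 1.69 CPM in ERβ1+CLI libraries, 1.47, 0.910 and 0.546 CPM in ERβ1 libraries and 0.770, 0.723 and 0.489 CPM in control libraries. ERβ1+CLI libraries lay above control libraries, with replicate 2 close to them, and ERβ1 libraries spread over both. No comparison of SERPING1 passed the test: its log2 fold changes were 0.56 with ERβ1 against control (95% interval -0.40 to 1.52; adjusted p = 0.401), 0.64 with ERβ1+CLI against ERβ1 (-0.28 to 1.56; 0.583) and 1.2 with ERβ1+CLI against control (0.25 to 2.14; 0.0653), all by edgeR. The last of these passed without ERβ1+CLI replicate 2 (adjusted p = 0.0283), the library low in SERPING1, and without ERβ1 replicate 1 (0.0493) or ERβ1 replicate 3 (0.0479), and in DESeq2 (0.0405). CFI (ENSG00000205403, chr4:109740694-109802179, minus strand), the protease that inactivates C3b with CD46 as a cofactor, had 0 counts in all ERβ1+CLI and ERβ1 libraries and 2, 1 and 4 counts in control libraries. All of these are near the floor, so no fold change is given.

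The membrane regulators were abundant in all 3 groups, and their differences were small. CD46 (ENSG00000117335, chr1:207752057-207795513, plus strand), a cofactor for the cleavage of C3b and C4b, stood at 175, 175 and 175 CPM in ERβ1+CLI libraries, 163, 163 and 168 CPM in ERβ1 libraries and 171, 178 and 185 CPM in control libraries. ERβ1 libraries lay below both other groups, which overlapped each other. CD46 fell with ERβ1 by 0.11 on the log2 scale (95% interval -0.19 to -0.03; adjusted p = 0.0464, edgeR), a mean of 0.925 times that of control cells. The call was lost without any 1 of 8 of the 9 libraries, the exception being control replicate 1, with adjusted p up to 0.175, and also with upper quartile scaling (0.116), without a filter (0.161), with the filter of 1 CPM in 3 libraries (0.0779) and with the 6 libraries alone (0.104). Against ERβ1, the log2 fold change of CD46 with ERβ1+CLI was 0.09 (0.01 to 0.17; adjusted p = 0.306, edgeR), and against control it was -0.02 (adjusted p = 0.692).

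CD55 (ENSG00000196352, chr1:207321376-207386804, plus strand), which speeds the decay of convertases, stood at 125, 121 and 124 CPM in ERβ1+CLI libraries, 131, 133 and 134 CPM in ERβ1 libraries and 131, 131 and 130 CPM in control libraries. The ERβ1+CLI libraries lay below both other groups by a narrow margin. Its log2 fold change with ERβ1+CLI was -0.10 against ERβ1 (95% interval -0.17 to -0.04; adjusted p = 0.146, edgeR) and -0.08 against control (-0.15 to -0.02; adjusted p = 0.0636). DESeq2 called both, with adjusted p = 0.0206 and 0.0302. With ERβ1 against control it was 0.02 (-0.04 to 0.09; adjusted p = 0.648, edgeR).

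CD59 (ENSG00000085063, chr11:33703010-33736491, minus strand), which blocks the membrane attack complex, was the highest of the 9 genes in every library. It stood at 465, 509 and 462 CPM in ERβ1+CLI libraries, 481, 488 and 465 CPM in ERβ1 libraries and 429, 453 and 446 CPM in control libraries. Both receptor groups lay above control and overlapped each other. Its log2 fold change was 0.11 with ERβ1 against control (95% interval 0.01 to 0.21; adjusted p = 0.103, edgeR), 0.11 with ERβ1+CLI against control (0.02 to 0.21; adjusted p = 0.085) and 0.00 with ERβ1+CLI against ERβ1 (-0.09 to 0.10; adjusted p = 0.992). The first passed with the 6 libraries alone (adjusted p = 0.0445) and without ERβ1+CLI replicate 2 (0.0310), and the second with the filter of 1 CPM in 3 libraries (0.0484).

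Leaving C3 aside, 3 of the 7 other tested genes were called with ERβ1 against control: CFB and C1R higher and CD46 lower. Of all genes tested, 21.4% were called in that comparison, 10.7% higher and 10.7% lower. The median log2 fold change of the 7 genes was 0.46. With ERβ1+CLI against ERβ1, edgeR called 0 of the 7 genes, beside 1.47% of all genes (1.04% higher and 0.428% lower), and the median of the 7 was 0.02. An unadjusted p under 0.05 was reached by 2 of them, CD46 and CD55; DESeq2 called 1, CD55, and limma-trend 0. With the replicate number as a block, since these same-numbered libraries counted as pairs, the number of genes called in this comparison was 136 in place of 251, and C3 had a log2 fold change of 1.56. With ERβ1+CLI against control, 2 of the 7 genes were called, C1R and C1S, both higher, beside 26.5% of all genes (13.3% higher and 13.1% lower), and the median was 0.27. The comparisons with control share their control libraries. The median log2 fold change of all genes tested was -0.00057 with ERβ1 against control, -0.00027 with ERβ1+CLI against ERβ1 and -0.00023 with ERβ1+CLI against control.

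Groups without overlap were more frequent than calls. With ERβ1 against control, 4 of the 7 genes other than C3 had groups that did not overlap (CFB, C1R and CD59 higher, CD46 lower), beside 39.6% of all genes, 19.6% higher and 20% lower. In ERβ1+CLI libraries against ERβ1 libraries there were 2 (CD46 higher, CD55 lower), beside 18.8% of all genes, 9.53% higher and 9.26% lower. In ERβ1+CLI libraries against control libraries there were 5 (C1R, C1S, CD59 and SERPING1 higher, CD55 lower), beside 41.7% of all genes, 20.5% higher and 21.2% lower.

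**Figure D2:**
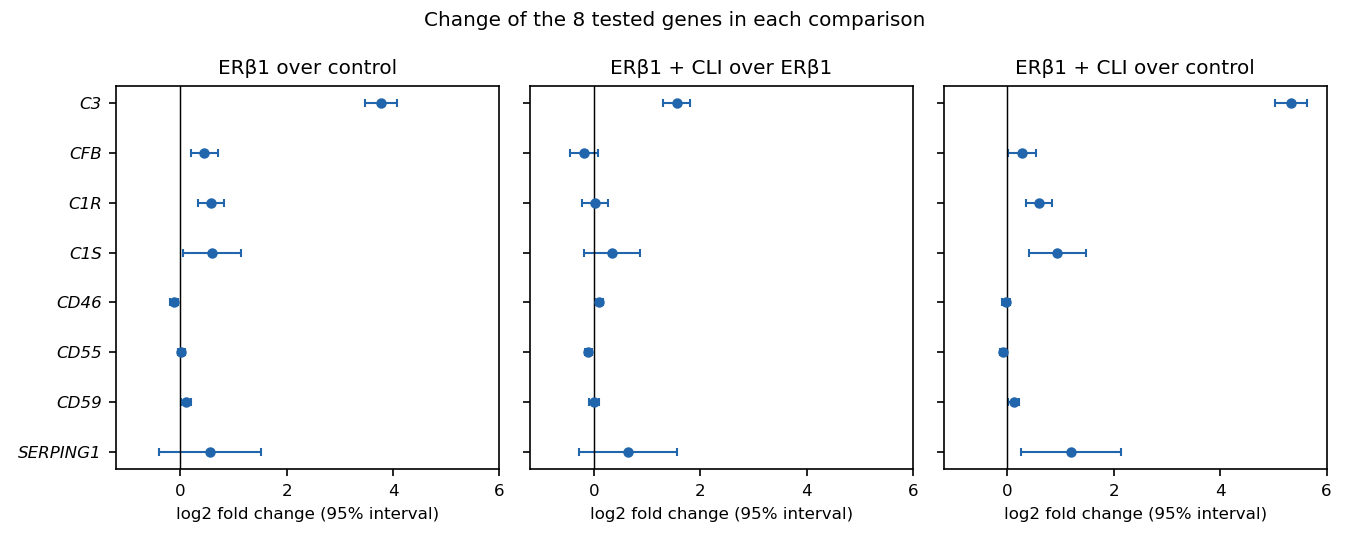
Log2 fold change (horizontal axis) of the 8 tested genes in the 3 comparisons, with bars for the 95% interval of the edgeR fit over 9 libraries. C3 lies at 3.78, 1.55 and 5.33, and every other gene lies between -0.19 and 1.2; the widest intervals are those of C1S and SERPING1, the genes with the fewest counts of the 8.

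The remaining genes of the pathway were taken from lists of textbook role: 51 genes, of which 22 were tested. With ERβ1 against control, 5 of the 22 were called higher and 1 lower, with a median log2 fold change of 0.09 (also 0.09 with CPN2 at its lower bound), beside 21.4% of all genes called. With ERβ1+CLI against ERβ1, edgeR called 1 of the 22, higher, beside 1.47% of all genes; DESeq2 called 2. With ERβ1+CLI against control, 5 were called higher and 2 lower, beside 26.5% of all genes called. CPN2 is among the genes called higher in each comparison, and C5AR2 in each comparison with control. Both passed the filter on low counts through the receptor groups, so these counts of calls are a description only. The C1q chains C1QA, C1QB and C1QC and the terminal components C6, C7, C8A and C8B were at 0 CPM in all libraries, and edgeR called 0 of the 5 tested genes of the lectin, alternative and terminal pathway lists with ERβ1 against control, where 1 of them had an unadjusted p under 0.05 and DESeq2 called 1 and limma-trend 0.

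Among classical pathway genes, 1 of 4 tested was called with ERβ1 against control, beside 21.4% of all genes. C1RL stood at 6.31, 5.39 and 8.83 CPM in ERβ1+CLI libraries, 5.36, 7.85 and 6.90 CPM in ERβ1 libraries and 3.89, 3.90 and 2.75 CPM in control libraries. Both receptor groups lay above control. C1RL rose with ERβ1 by a log2 fold change of 0.93 (adjusted p = 0.0185, edgeR), a call lost without control replicate 3 (0.0585), ERβ1 replicate 2 (0.0614) or ERβ1 replicate 3 (0.0518). C4A and C4B, which are near-identical copies so that their counts are uncertain, had log2 fold changes of 0.18 and -0.05 with ERβ1 (adjusted p = 0.833 and 0.911). C2, the classical counterpart of CFB beside it on chromosome 6, had 0.12 (adjusted p = 0.813).

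Of the alternative and terminal pathway genes, CFD, the protease that cleaves factor B, averaged 3.76 ± 0.445 CPM with ERβ1+CLI, 4.22 ± 0.243 with ERβ1 and 3.73 ± 0.205 in control cells (SD, n = 3 each). CFP, the convertase stabiliser properdin, averaged 9.14 ± 1.39 CPM with ERβ1+CLI, 9.82 ± 1.73 with ERβ1 and 11.3 ± 1.19 in control cells. C5, the substrate of the convertases that form around C3b, averaged 8.46 ± 0.559 CPM with ERβ1+CLI, 8.21 ± 0.742 with ERβ1 and 10.2 ± 1.01 in control cells, with a log2 fold change of -0.31 for ERβ1 (adjusted p = 0.0633, edgeR). COLEC12, the one lectin pathway gene tested, averaged under 1 CPM in every group.

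Among the fluid phase regulators, CPN2, a subunit of the carboxypeptidase that inactivates C3a and C5a, was the one gene of the 22 that edgeR called with ERβ1+CLI against ERβ1. It is named although its mean was under 1 CPM, after its values were seen. CPN2 had 82, 89 and 86 counts in ERβ1+CLI libraries, 15, 13 and 15 counts in ERβ1 libraries and 0 in all control libraries. Against a floor of 3 counts per library, it was at least 4.6-fold higher with ERβ1 and at least 27.1-fold higher with ERβ1+CLI than in control cells. Its log2 fold change with ERβ1+CLI against ERβ1 was 2.56. CPN2 passed the filter on low counts through the receptor groups, so it is described without a test. CPN1, the catalytic subunit, was at 0 CPM. SUSD4, an inhibitor of complement, had 0.742, 0.528 and 0.429 CPM in ERβ1+CLI libraries, 1.72, 1.36 and 1.14 CPM in ERβ1 libraries and 1.52, 0.887 and 1.51 CPM in control libraries. SUSD4 fell with ERβ1+CLI against control by 1.21 on the log2 scale (adjusted p = 0.0168, edgeR), a call lost without control replicate 1 (0.0589), control replicate 3 (0.0552), ERβ1+CLI replicate 2 (0.0534) or ERβ1+CLI replicate 3 (0.0588). Clusterin (CLU), a terminal pathway inhibitor, averaged 37.8 ± 7.10 CPM with ERβ1+CLI, 32.7 ± 6.33 with ERβ1 and 31.0 ± 5.38 in control cells (SD, n = 3 each). CLU was not called in any comparison.

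Of the further membrane regulators and receptors, THBD, thrombomodulin, stood at 60.8, 62.0 and 65.1 CPM in ERβ1+CLI libraries, 61.6, 59.3 and 59.2 CPM in ERβ1 libraries and 43.1, 42.6 and 41.0 CPM in control libraries. THBD rose with ERβ1 by a log2 fold change of 0.51 (adjusted p = 6.61e-05, edgeR). ITGB2, the shared β chain of complement receptors 3 and 4, averaged 12.5 ± 0.350 CPM with ERβ1+CLI, 12.4 ± 0.253 with ERβ1 and 8.06 ± 1.08 in control cells (SD, n = 3 each), and rose with ERβ1 by 0.62 (adjusted p = 0.00201). ITGB2 is also a leukocyte gene, and its partner chains ITGAM and ITGAX did not pass the filter on low counts. C1QBP, a protein that binds C1q and resides mainly in mitochondria, fell with ERβ1 by 0.23 on the log2 scale (adjusted p = 0.0131), a call lost without control replicate 2 (0.0536) or ERβ1 replicate 3 (0.0557). The anaphylatoxin receptors C3AR1 and C5AR1 averaged under 1 CPM in every group and were not called. C5AR2, a second C5a receptor, had 56, 102 and 123 counts in ERβ1+CLI libraries, 20, 26 and 53 counts in ERβ1 libraries and 4, 13 and 2 counts in control libraries. It is among the genes counted as higher above and is named after its values were seen; having passed the filter through the receptor groups, it is described without a test, and its call with ERβ1 against control was lost without any 1 of 5 libraries.

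**Figure D3:**
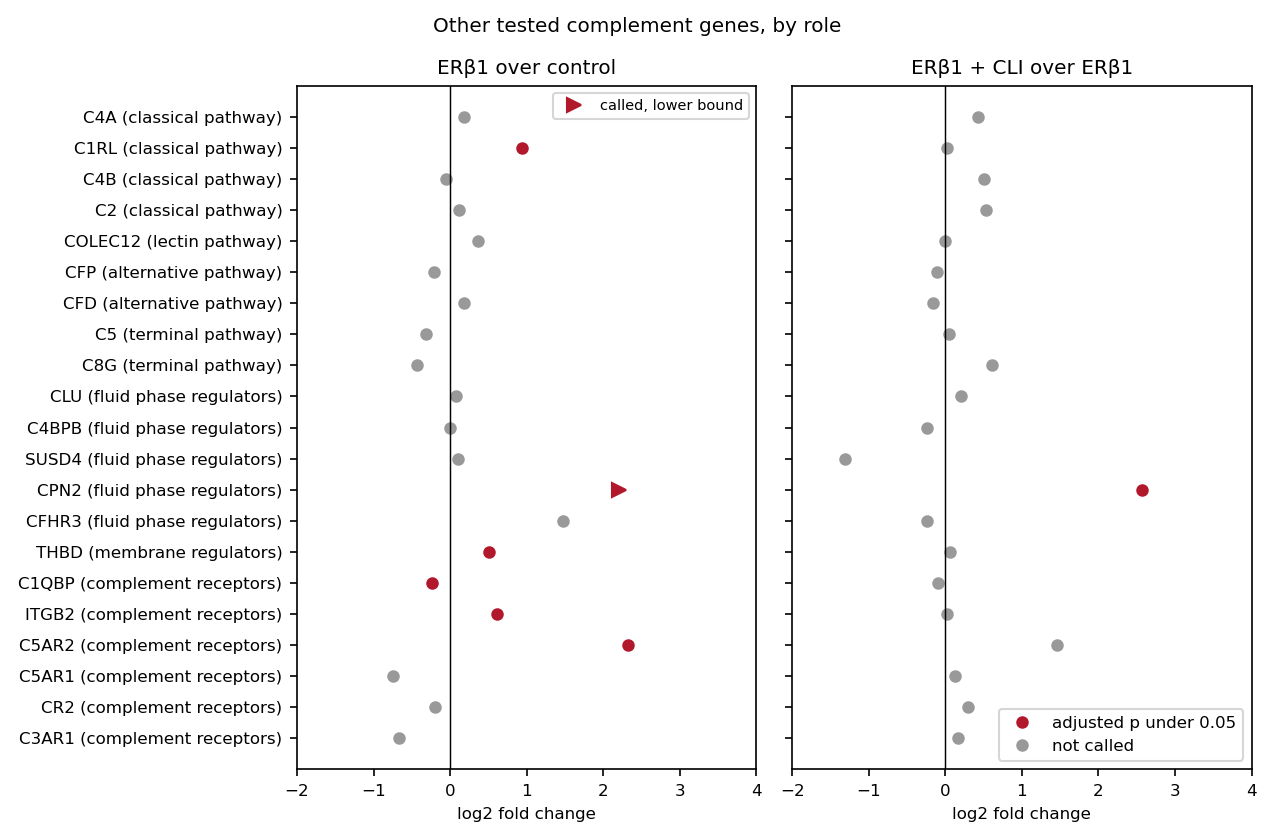
Log2 fold change (horizontal axis) of 21 of the 22 other complement genes tested, each labelled with its list, for ERβ1 over control and for ERβ1+CLI over ERβ1; red marks an adjusted p under 0.05 and the triangle a lower bound. In the first panel 6 genes are red, with CPN2 drawn at its bound of 4.6-fold, and in the second CPN2 alone is red at 2.56.

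Genes known to induce or accompany C3 were read from lists chosen by role. Of 11 tested cytokines and receptors that induce C3, 6 were called higher with ERβ1 and none lower, beside 10.7% of all genes higher and 10.7% lower, with a median log2 fold change of 0.19. IL1B stood at 13.1, 12.1 and 13.4 CPM in ERβ1+CLI libraries, 17.7, 16.1 and 16.9 CPM in ERβ1 libraries and 7.68, 6.0 and 5.73 CPM in control libraries. The 3 groups did not overlap, and the highest group was ERβ1, not ERβ1+CLI as for C3. IL1B rose with ERβ1 by a log2 fold change of 1.39 (adjusted p = 6.26e-05, edgeR), IL1A by 0.58 (0.00471), the receptor IL1R1 by 0.80 (0.00539) and the interferon receptor chain IFNGR2 by 0.16 (0.0162). In ERβ1+CLI against ERβ1, edgeR called 0 of the 11, beside 1.47% of all genes; 3 had an unadjusted p under 0.05, and DESeq2 called 1 and limma-trend 0. IL1B had there a log2 fold change of -0.39 (adjusted p = 0.147). In ERβ1+CLI libraries against control libraries 6 of the 11 were called higher, beside 13.3% of all genes, with IL1B at 0.99 (adjusted p = 0.000262), TNFRSF1A, the TNF receptor, at 0.32 (0.00244) and IL6R, the interleukin-6 receptor, at 2.09 (0.00957). Several of these calls were fragile. With ERβ1 against control, that of IL6R was lost without any 1 of 5 libraries (adjusted p up to 0.0882, edgeR) and that of TNFRSF1A without any 1 of 3 (up to 0.0954). With ERβ1+CLI against control, that of IL1A was lost without any 1 of 6 (up to 0.132) and that of IL1R1 without any 1 of 3 (up to 0.0549).

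Of 13 tested transcription factors that act on the C3 and CFB promoters, 5 were called higher with ERβ1 and none lower, beside the same 10.7% of all genes in each direction, with a median of 0.105. FOS, a subunit of AP-1, averaged 4.71 ± 0.192 CPM with ERβ1+CLI, 4.21 ± 0.583 with ERβ1 and 1.75 ± 0.267 in control cells (SD, n = 3 each), and rose with ERβ1 by a log2 fold change of 1.26 (adjusted p = 0.000516, edgeR). CEBPD, which binds the C/EBP core, rose by 0.66 (0.000594), the NF-kB subunit RELB by 0.42 (0.00311) and JUN by 0.26 (0.00103). For ERβ1+CLI against ERβ1, edgeR called 0 of the 13, beside 1.47% of all genes. Of the 13, 3 had an unadjusted p under 0.05, and DESeq2 called 1 and limma-trend 0. CEBPD had 0.19 there (adjusted p = 0.365), and the ERβ1+CLI libraries lay above the ERβ1 libraries. In ERβ1+CLI libraries against control libraries 6 of the 13 were called higher and none lower, beside 13.3% of all genes higher and 13.1% lower, with FOS at 1.43 (adjusted p = 0.000177), CEBPD at 0.84 (0.0001) and IRF1, an interferon regulatory factor, at 0.29 (0.00263). The IRF1 call with ERβ1 against control was lost without any 1 of 4 libraries (adjusted p up to 0.0619, edgeR). With ERβ1+CLI against control, the call of STAT3 was lost without any 1 of 5 (up to 0.111) and that of CEBPB without any 1 of 3 (up to 0.0659).

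Of 8 tested acute phase genes outside complement, 4 were called higher with ERβ1 and none lower, beside 10.7% of all genes in each direction, with a median of 0.86. SERPINA3, antichymotrypsin, stood at 3.8, 3.26 and 3.95 CPM in ERβ1+CLI libraries, 2.68, 3.28 and 3.53 CPM in ERβ1 libraries and 0.550, 0.653 and 0.582 CPM in control libraries. Receptor groups lay above control and overlapped each other. SERPINA3 rose with ERβ1 by a log2 fold change of 2.40 (adjusted p = 2.24e-05, edgeR), SERPINA1, antitrypsin, by 1.2 (2.63e-06), and the serum amyloid genes SAA2 by 0.78 (0.000798) and SAA1 by 0.56 (4.70e-05). SAA1 and SAA2 are near-identical, so their separate counts are uncertain. EdgeR called 0 of the 8 with ERβ1+CLI against ERβ1, beside 1.47% of all genes. DESeq2 and limma-trend likewise called 0, and 1 had an unadjusted p under 0.05. Log2 fold changes there were 0.12 for SERPINA1 (adjusted p = 0.36, edgeR) and 0.21 for SERPINA3 (0.604). In ERβ1+CLI libraries against control libraries 5 of the 8 were called higher and 1 lower, beside 13.3% of all genes higher and 13.1% lower, with SERPINA3 at 2.62 (adjusted p = 8.35e-06), SERPINA1 at 1.32 (6.85e-07) and PTX3, a long pentraxin, the lower one, at -0.25 (0.0350). The PTX3 call was lost without any 1 of 6 libraries, with adjusted p up to 0.115. LCN2, one of the 5 called higher, had 1.02 (adjusted p = 0.0484, edgeR). Its call was likewise lost without any 1 of 6 libraries (up to 0.144), and in 3 of 9 other settings.

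Of 14 tested genes within 500 kb of C3, 3 were called higher with ERβ1 and none lower, beside 21.4% of all genes, with a median log2 fold change of 0.11. With ERβ1+CLI against ERβ1, 1 was called higher, AC008760.2, beside 1.47% of all genes, and the median was -0.02. AC008760.2 lies inside C3 on the same strand (chr19:6716386-6717742, annotated as sense intronic) and shares no exon base with it, and it was singled out after its values were seen. It had 132, 192 and 144 counts in ERβ1+CLI libraries, 33, 36 and 43 counts in ERβ1 libraries and 1, 1 and 1 in control libraries. Its ratio to control was 35 with ERβ1 (95% exact counting interval 11.7 to 172) and 148 with ERβ1+CLI (50.2 to 719). Its log2 fold change with ERβ1+CLI against ERβ1 was 2.04. Its counts cannot be told apart from unspliced C3 RNA, and it passed the filter on low counts through the receptor groups. AC008760.2 is therefore described without a test, and the counts of calls around C3, which include it, are a description only. GPR108, whose end overlaps the start of C3, had a log2 fold change of 0.15 with ERβ1 (adjusted p = 0.389). Of the other neighbours, SH2D3A, an adaptor protein gene, rose with ERβ1 by 0.81 (adjusted p = 0.000165) and SLC25A23, a mitochondrial carrier gene, by 0.28 (0.00131). Around CFB, in the major histocompatibility complex, 5 of 60 tested neighbours were called higher and 10 lower with ERβ1, and around C1R 5 of 34 were called higher and none lower, beside 10.7% of all genes in each direction.

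**Figure D4:**
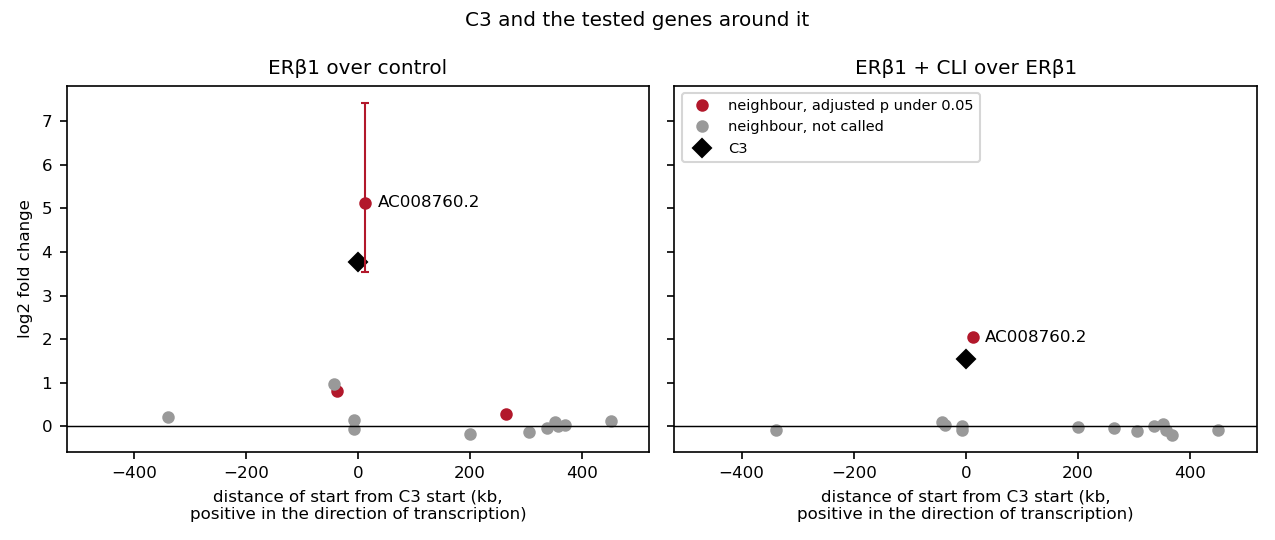
Log2 fold change (vertical axis) of C3 and the 14 tested genes within 500 kb, against the distance of each start from the start of C3 in kb along its direction of transcription, for ERβ1 over control and ERβ1+CLI over ERβ1. AC008760.2, inside C3, lies with C3 above all others in both panels; in the first it is drawn as its count ratio of 35 with the 95% counting interval.

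The genes whose levels followed C3 most closely were ranked by Pearson's r of log2 CPM over the 9 libraries among the 11835 genes that averaged 2 CPM or more, as a description without a test. The libraries share 3 groups, so r is set largely by the group means. Of the first 5, 4 are described: HSPB8 (r = 0.9985), NEU1 (0.9974), IER5L (0.9973) and INHBA (0.9972). All 4 had the order of C3, from ERβ1+CLI through ERβ1 to control. HSPB8, a small heat shock protein gene, averaged 20.7 ± 0.540 CPM with ERβ1+CLI, 9.72 ± 0.0343 with ERβ1 and 1.59 ± 0.184 in control cells (SD, n = 3 each). INHBA, which encodes the activin A subunit, averaged 112 ± 2.95 CPM with ERβ1+CLI, 78.1 ± 1.49 with ERβ1 and 35.5 ± 0.443 in control cells. IER5L averaged 39.2 ± 0.664 CPM with ERβ1+CLI, 27.6 ± 0.518 with ERβ1 and 13.8 ± 0.983 in control cells. NEU1, the lysosomal sialidase gene, averaged 71.0 ± 0.702 CPM with ERβ1+CLI, 65.5 ± 0.510 with ERβ1 and 54.6 ± 0.846 in control cells. The start of NEU1 lies at -82.7 kb from that of CFB, on the side before it. Among the 9 genes, r with C3 was 0.906 for C1R, 0.860 for C1S, 0.746 for CD59, 0.679 for SERPING1, 0.603 for CFB, -0.344 for CD46 and -0.552 for CD55.

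**Figure D5:**
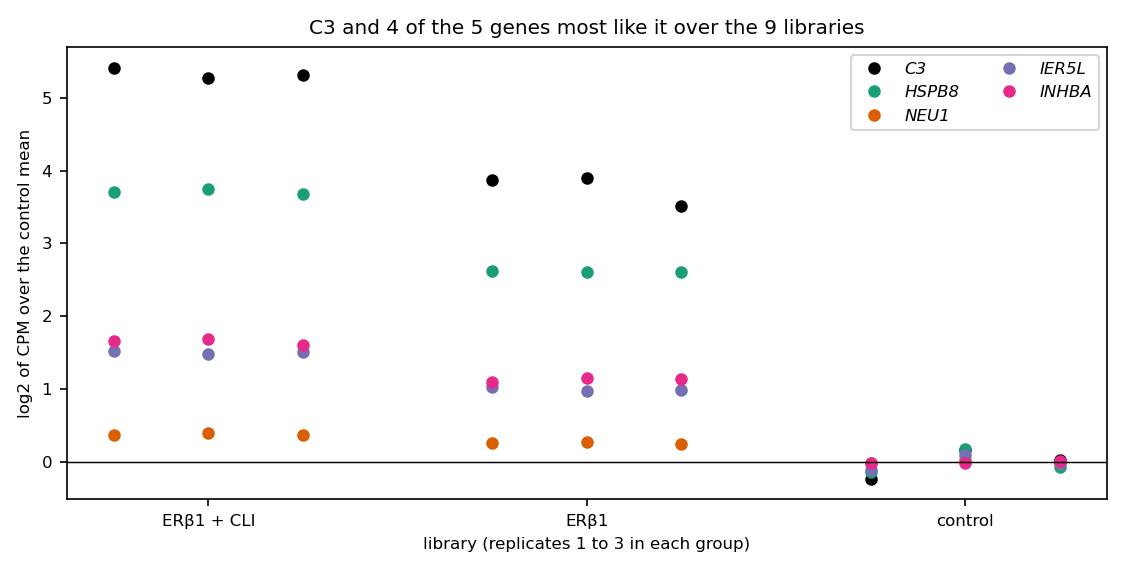
Log2 of the CPM of each library over the mean CPM of the control libraries (vertical axis) for C3 and 4 of the 5 genes with the highest r with it, with replicates 1 to 3 of the ERβ1+CLI, ERβ1 and control groups from left to right. C3 and the 4 genes are in the same order of groups, and C3 has the widest spread between them, with HSPB8 next.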

How the data were processed

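Libraries were stranded mRNA libraries read from one end, per the labels' protocols. The submitters' processing notes name GRCh38 and the tools Salmon 1.2.1, edgeR 3.30.3 in R 4.0.2, Trimmomatic 0.38, FastQC and bcl2fastq 2.20; settings and the annotation are not stated there. The authors deposited estimated counts for 60240 gene IDs with no normalization stated, and log2 CPM on TMM-scaled library sizes, per the labels, for 18934 genes. The cell line label counts up from MDA-MB-231 over the libraries, whereas the growth protocol has MDA-MB-231 throughout. Count columns, which name control libraries wild type, were matched by treatment and replicate number.

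Rounded estimated counts were tested with edgeR 4.0.16 (R 4.3.3): filterByExpr, TMM and 1 quasi-likelihood fit over 9 libraries with 1 coefficient per group. Calls were made at an adjusted p under 0.05 (2-sided, Benjamini-Hochberg over 17058 genes). The SE is the log2 fold change divided by the square root of F. With 3 libraries a group, the smallest exact permutation p is 0.1. Counting intervals and floors cover counting error only. The fit was tested on simulated data. Total counts were 39902456 to 55387538 per library, and chi-square values per gene between libraries of a group exceeded those of counting noise.

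The genes and lists were chosen with earlier results of these data known. Named were the 9 genes; from each list up to 4 called genes with the smallest adjusted p and a mean of at least 1 CPM, or the 2 highest where none was called; the 5 genes most like C3; and ESR2. Results for a pair of these genes are not reported here. Values of marker lists are given as sums. Positions came from GENCODE 29, which held 58064 of the gene IDs. Residuals of 12625 genes were correlated between libraries with the same number in their titles: 0.130, 0.416 and 0.146 for ERβ1+CLI with ERβ1, which count as pairs because each is over 0.1, although ERβ1+CLI 1 with ERβ1 3 (0.165) and 3 with 1 (0.18) were higher than 1 with 1 and 3 with 3, and the other differently numbered pairs ran from -0.272 to -0.245; they were -0.0883, -0.0468 and -0.0183 for ERβ1 with control, and -0.0028, -0.0259 and 0.0612 for ERβ1+CLI with control. Alternatives were RLE and upper quartile scaling, no filter, a filter of 1 CPM in 3 libraries, DESeq2 1.42.0, limma-trend (limma 3.58.1) on the log2 CPM as deposited, fits to the 6 libraries of a comparison, a replicate block and each library left out; a block within 6 libraries was added after the data were seen. Figures used Python 3.11.15, pandas 2.3.3 and matplotlib 3.10.9.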

Additional observations from a re-analysis of the deposited data

How the results depend on the processing

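The calls of C1R in both comparisons with control held in all alternatives run. Log2 fold changes near 0 changed sign: with 1 library left out, C1R in ERβ1+CLI against ERβ1 ran from -0.064 to 0.076, CD46 in ERβ1+CLI against control from -0.046 to 0.011 and CD59 in ERβ1+CLI against ERβ1 from -0.047 to 0.027, and without a filter CD59 had -0.0035 there. The count of genes called in ERβ1+CLI against ERβ1, 251, was 158 with the 6 libraries alone, 641 with DESeq2, 136 with the replicate block, 66 with the block within the 6 libraries and 114 to 211 with 1 library left out. In ERβ1 against control it was 2230 with the block within the 6 libraries, against 3645. Of the 8 complement genes tested, 2 to 4 were called in ERβ1 against control and 2 to 5 in ERβ1+CLI against control with 1 library left out. These counts include C3, which was chosen for its rise, so they are given for their spread alone. Over all genes, 2517 to 3649 and 3364 to 4376 were called in the same settings. Of the 7 genes without C3, DESeq2 called 4 in ERβ1+CLI against control and 1 in ERβ1+CLI against ERβ1. Of the 22 other complement genes, 3 to 6 were called in ERβ1 against control with 1 library left out, and DESeq2 called 2 in ERβ1+CLI against ERβ1. That range includes CPN2, which passed the filter on low counts through the receptor groups, so the range is given for its spread alone. The cause of these shifts was not tested. In ERβ1 against control, where the numbers do not pair the samples, the replicate block gave CD46 an adjusted p of 0.0523 and C1S one of 0.0464, and in ERβ1+CLI against control it gave CFB one of 0.0453. The block changed no other call of the 8 genes. The share of calls that were higher in ERβ1+CLI against ERβ1 was 70.9%, and 57.1% with DESeq2. Each symbol had 1 row, so summing rows by symbol gave no value. Low counts limit C1S, SERPING1 and CFI, and CFI could not be tested at this depth.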
